A study of Mus musculus with 28 samples.

Results

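The immunity-related GTPases (IRG) were followed in mouse bone marrow-derived macrophages (BMDMs) as the 7 listed genes Irgm1, Irgm2, Igtp, Iigp1, Ifi47, Tgtp1 and Tgtp2, out of 54532 genes in the count table. Every listed symbol was found by its Ensembl gene through the GENCODE M21 annotation of GRCm38 and the members are set by name, not by a threshold on a measured value. RNA sequencing had been carried out on BMDMs of C57/B6JB mice, which are bone marrow cells matured with the growth factor M-CSF, and the same M-CSF medium was used overnight before treatment. The wells then received fresh medium with calcium chloride together with PBS (control), human plasma-derived von Willebrand factor (VWF, the large plasma glycoprotein that tethers platelets) at 10 µg/ml, or bacterial lipopolysaccharide (LPS, the ligand of Toll-like receptor TLR4) at 100 ng/ml. RNA was taken after 3.5 h or 16 h, giving 5 control, 5 VWF and 4 LPS cultures at each time and 28 cultures in all. The labels name no edited gene and no transgene in any group. The labels call the replicates biological without saying what separates them, so p-values measure the spread between these cultures.

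IRG proteins are large GTPases that interferons switch on strongly in mouse cells, and they guard the cell interior against pathogens that live inside a membrane-bound vacuole. The effector GTPases (the GKS class, here Iigp1, Ifi47, Tgtp1 and Tgtp2) load onto the vacuole membrane and disrupt it, whereas the regulatory IRGM proteins (the GMS class, here Irgm1, Irgm2 and Igtp) sit on the cell's own membranes and hold the effectors in their inactive, GDP-bound state. Transcription of the family is driven mainly by interferon-γ at gamma-activated sites (GAS) and by type I interferon at interferon-stimulated response elements (ISRE).

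Of the 7 genes, all but Iigp1 lie on chromosome 11 of GRCm38, in a pair of neighbourhoods. Irgm1 (chr11:48861968-48871683, minus strand), Tgtp1 (chr11:48985327-48994172, minus strand), Tgtp2 (chr11:49057194-49064206, minus strand) and Ifi47 (chr11:49076587-49096974, plus strand) form the first, and Igtp (chr11:58199556-58207591, plus strand) and Irgm2 (chr11:58199618-58222782, plus strand) form the second. Tgtp1 and Tgtp2 are near-identical paralogs: 62.5% of the 150-base windows of Tgtp1 transcripts occur unchanged in Tgtp2, and 68.4% of the windows of Tgtp2 occur in Tgtp1. Igtp and Irgm2 overlap by 162 exonic bases on the same strand and share 0.739% and 0.437% of their windows, and Tgtp1 overlaps the further IRG gene Gm12185 by 223 exonic bases on the same strand. No 150-base window of Irgm1, Iigp1 or Ifi47 was shared with another gene, although Ifi47 overlaps Olfr56 by 111 exonic bases on the same strand, which is shorter than a window. How the mapping assigned reads that fit both Tgtp genes is not given in the sources used here, so the level of each of the pair is uncertain and their sum is given beside them.

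The promoters are shown because the family is controlled there and because paralogs also share this sequence. RefSeq promoter sequence (GRCm38.p6, from 250 bases before to 50 bases after the start) was at hand for 6 of the 7 genes and not for Iigp1. In the windows below, written 5′ to 3′ on the strand of the gene, the capitals mark a GAS (TTCNNNGAA) and, 2 bases further on, an ISRE (GAAA, any 2 bases, GAAA).
Irgm2 (chr11:58214898-58214927, plus strand): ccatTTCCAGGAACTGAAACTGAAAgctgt
Igtp (chr11:58199507-58199536, plus strand): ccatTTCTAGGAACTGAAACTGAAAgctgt
Tgtp1 (chr11:48992309-48992338, minus strand): ccatTTCCAGGAATCGAAACTGAAAcctac
Tgtp2 (chr11:49064268-49064297, minus strand): ccatTTCCAGGAATCGAAACCGAAAcctac
Gm12185, a further IRG gene (chr11:48927243-48927272, minus strand): ccatTTCCAGGAATAGAAAGTGAAAcctac
These 5 genes were the only promoters of 32851 in the table (0.0152%) with this arrangement on either strand. The capitals began 75, 45, 88, 81 and 86 bases before the RefSeq start, in the order shown. RefSeq starts can differ from the GENCODE bounds used here for gene positions. The windows of Irgm2, Tgtp1 and Gm12185 lie inside the GENCODE bounds of their genes, and those of Igtp and Tgtp2 lie before them. The arrangement was spelled out after the promoters of these genes had been read, and the GAS and ISRE do not overlap in it.

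Irgm1 carried no GAS but had overlapping ISRE matches, of which the capitals mark the one beginning 30 bases before the RefSeq start. The window shown for Irgm1 also lies inside the GENCODE bounds of its gene.
Irgm1 (chr11:48871431-48871460, minus strand): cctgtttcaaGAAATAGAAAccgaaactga
The ISRE letters, or their reverse complement, occurred in 5 of the 6 promoters against 3.44% of all promoters, and the GAS letters in 4 of 6 against 8.30% of all promoters. The Ifi47 window held neither, which says only that these letters are not in it. A match is a description of the sequence and not a measured binding site.

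Depth and identity of the cultures were checked first. Between 41131209 and 77699206 reads were counted per culture (median 52986574). The 7 macrophage markers summed to 18175 to 26954 CPM (counts scaled to library size) with VWF at 16 h and to 4430 to 15666 CPM in the other groups, with none at 0, and the part of this in the 16 h VWF results was not tested. Against control (adjusted p below 0.05, fold change above 2), 1 of the 7 was lower with VWF at 3.5 h (453 of 8200 genes tested). At 16 h 3 were higher with VWF (4.55% of genes tested). With LPS 1 was higher at 3.5 h (12.8%) and 2 at 16 h (15.3%). There 1 was lower (2210 of 7994 genes called in either direction). T cell, B cell and neutrophil marker sums did not pass 8.47, 13.0 and 5.93 CPM, and the fibroblast sum (collagens and matrix genes) ran from 16.0 to 414 CPM with overlapping ranges in all 6 groups. CPM values below are scaled by edgeR's TMM factors. With scaling by library size alone the median log2 fold change of all genes would be -0.57 in place of -0.0292 for LPS against control at 16 h, the widest shift of the 12 comparisons, and it changed none of the calls of the 7 genes. In bulk RNA, fewer cells making a transcript and less transcript per cell cannot be told apart.

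**Figure D1:**
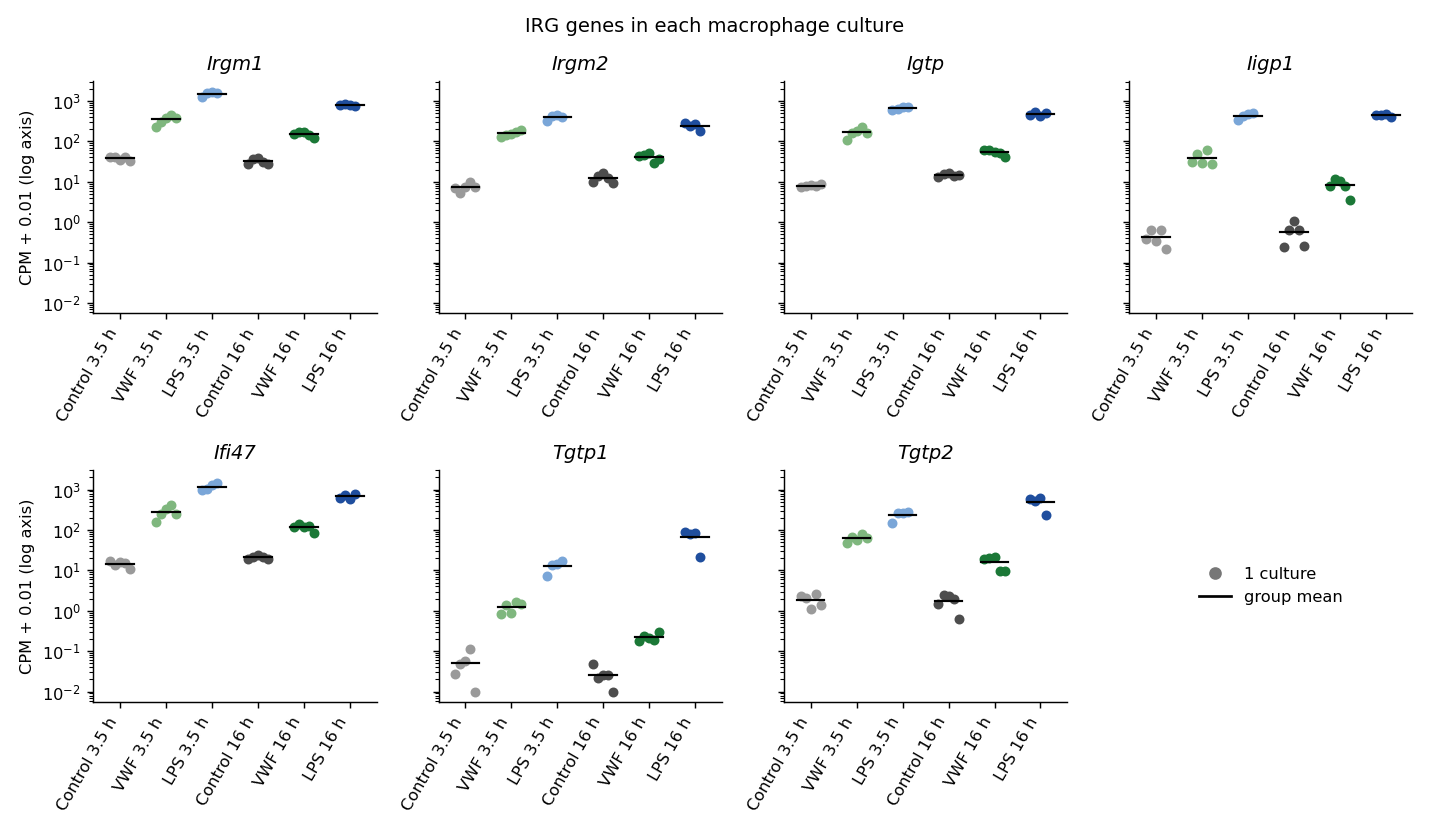
Level of each IRG gene in every culture, as TMM-scaled CPM plus 0.01 on a log axis. Points are cultures and bars are group means. In each panel the VWF and LPS cultures lie above the controls of the same time, and the LPS cultures lie above the VWF cultures of the same time.

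The first comparison asked how VWF and LPS acted on the family at 3.5 h. Every IRG gene was higher with VWF than with PBS and higher again with LPS. All 5 VWF cultures lay above all 5 controls for 7 of 7 genes, a separation found upwards for 21.7% of the 8200 genes tested. The effector Iigp1 showed the largest VWF-to-control ratio of mean CPM, 92.4, and the regulator Irgm1 the smallest, 9.31.

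Irgm1, which binds host membranes and has been linked to autophagy and to defence against mycobacteria, had the highest mean level per exon length of the 7 genes in the 3.5 h controls (21.5 TPM, counts per exon length scaled to a common total). At 3.5 h it stood at 41.2, 40.5, 33.6, 40.5 and 32.1 CPM in the controls, at 232, 305, 381, 455 and 377 CPM with VWF, and at 1275, 1545, 1701 and 1557 CPM with LPS. The 3 groups were far apart, and the lowest VWF culture lay well above the highest control. The difference between VWF and control was 3.14 ± 0.17 (log2 fold change ± SE, adjusted p = 6.47e-08 by the quasi-likelihood test of edgeR, Benjamini-Hochberg over all genes tested), and that between LPS and control was 5.29 ± 0.14 (adjusted p = 2.45e-10).

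Irgm2, a regulator found on the Golgi apparatus, measured 7.08, 5.13, 7.32, 9.97 and 7.30 CPM in the controls, 125, 143, 154, 173 and 191 CPM with VWF, and 327, 423, 439 and 389 CPM with LPS. The groups did not overlap, and of the 7 genes Irgm2 showed the smallest distance between VWF and LPS. The log2 fold change was 4.34 ± 0.18 for VWF and 5.70 ± 0.18 for LPS against control (adjusted p = 8.92e-09 and 6.45e-10), and between VWF and LPS it was -1.34 ± 0.12 (adjusted p = 1.02e-05).

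Igtp, also called Irgm3 and located on the endoplasmic reticulum and lipid droplets, varied little between untreated cultures. Its controls held 7.20, 7.72, 8.13, 7.73 and 8.56 CPM, the VWF cultures 110.1, 156, 175, 229.7 and 157 CPM, and the LPS cultures 596, 617, 707 and 692 CPM. Again no culture of one treatment reached the range of another. Log2 fold changes against control were 4.32 ± 0.17 with VWF and 6.33 ± 0.09 with LPS (adjusted p = 6.03e-09 and 6.70e-12).

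Iigp1 (Irga6), an effector that oligomerises on vacuole membranes when it binds GTP, is the 1 gene of the 7 listed outside chromosome 11. It was nearly silent without stimulation. Its 5 controls gave 0.363, 0.620, 0.327, 0.615 and 0.207 CPM, or 10 to 47 reads each. With VWF it gave 31.5, 47.5, 29.8, 61.0 and 27.2 CPM, and with LPS 333, 432, 463 and 501 CPM. VWF and LPS therefore moved it over the widest span of the 6 genes that could be fitted, by 6.42 ± 0.35 and 9.90 ± 0.27 on the log2 scale (adjusted p = 6.47e-08 and 2.98e-10). Between VWF and LPS the log2 fold change was -3.47 ± 0.24 (adjusted p = 1.72e-06).

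Ifi47 (Irgd), an effector that is less well understood, measured 16.8, 13.7, 15.7, 15.3 and 11.1 CPM in the controls, 161, 249.6, 331, 421 and 248 CPM with VWF, and 974, 1043, 1311 and 1424 CPM with LPS. The VWF cultures were widely spread, and none overlapped the other groups. Log2 fold changes against control were 4.19 ± 0.24 and 6.30 ± 0.18 (adjusted p = 9.30e-08 and 3.35e-10).

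Tgtp2 and Tgtp1 (Irgb6) encode an effector that helps to mark vacuoles early. Tgtp2 held 2.26, 2.01, 1.11, 2.66 and 1.38 CPM in the controls, 48.6, 65.6, 55.4, 81.8 and 64.6 CPM with VWF, and 149, 270.0, 261 and 281 CPM with LPS. The first LPS culture was lower than the other 3 but still above every VWF culture. The log2 fold change was 4.98 ± 0.26 with VWF and 6.93 ± 0.30 with LPS (adjusted p = 4.53e-08 and 6.29e-09).

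Tgtp1 was counted far less often than its paralog. The controls held only 1, 2, 3, 8 and 0 reads, VWF cultures held 43 to 109 reads (0.812, 1.37, 0.888, 1.60 and 1.45 CPM), and LPS cultures 279 to 591 reads (7.12, 13.6, 14.3 and 16.6 CPM). The groups again stayed apart. Tgtp1 never reached the 10 TPM required for testing at this time, and without that filter its log2 fold change was 4.70 ± 0.49 with VWF and 8.07 ± 0.41 with LPS (adjusted p = 3.33e-07 and 1.21e-10), against controls with 14 reads in all.

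Over the family, 6 of the 6 genes that passed the filter were called higher with VWF than with PBS at 3.5 h (adjusted p below 0.05 and a fold change above 2, a call made upwards for 9.18% of genes tested), and without the filter 7 of 7 were called (5.33% of genes tested). For LPS against control the counts were 6 of 6 (12.8% of genes tested) and 7 of 7 (8.35%), and the groups did not overlap for 7 of 7 genes (27.2%). VWF was lower than LPS for 6 of 6 (6.71%) and for 7 of 7 without the filter (4.32%), with no overlap for 7 of 7 (15.4%). Irgm2, Iigp1 and Tgtp2 reached 10 TPM at this time only in treated cultures, so the filter favoured a rise in them and their filtered calls are no separate support. The median log2 fold change was 4.33 with VWF over the 6 genes and 0.00153 over all genes tested, and 6.32 with LPS against -0.0170 over all genes. These 3 comparisons share their cultures pairwise.

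**Figure D2:**
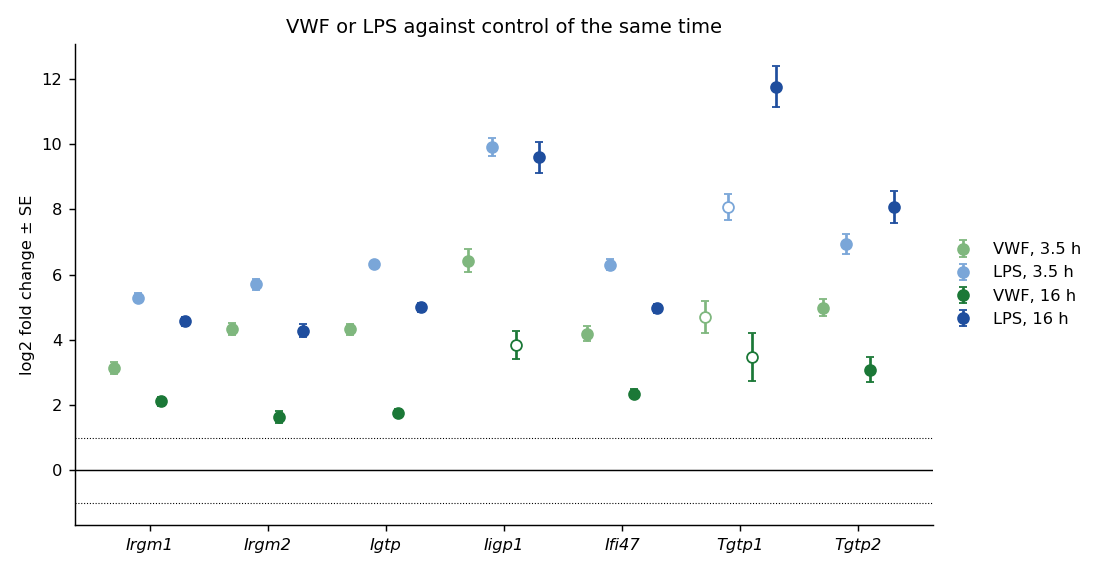
Log2 fold change of each IRG gene with VWF or LPS against the control of the same time, with SE. Filled symbols are from the fit with the 10 TPM filter, open symbols (Tgtp1 at 3.5 h, Iigp1 and Tgtp1 for VWF at 16 h) from the fit without it, and dotted lines mark a 2-fold change. For each gene and time the LPS value lies above the VWF value, and each VWF value is lower at 16 h than at 3.5 h.

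The same comparison at 16 h asked what remained after prolonged exposure. All 7 genes were still higher with VWF than with PBS, by ratios of mean CPM from 3.34 (Irgm2) to 14.7 (Iigp1), and higher with LPS than with VWF. No gene's VWF range overlapped its control range (17.6% of the genes tested separated upwards). In the LPS cultures the effector genes Tgtp1, Tgtp2 and Iigp1 reached their highest means of the 6 groups.

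Irgm1 measured 26.7, 37.5, 38.9, 31.4 and 27.1 CPM in the 16 h controls, 154, 170.2, 173, 142 and 124 CPM with VWF, and 778, 824, 806 and 732 CPM with LPS. Each treatment formed a tight cluster. Its log2 fold change against control was 2.13 ± 0.14 with VWF and 4.57 ± 0.14 with LPS (adjusted p = 2.31e-06 and 2.41e-08).

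Irgm2 held 9.65, 13.8, 16.2, 12.2 and 9.45 CPM in controls, 43.7, 45.3, 50.4, 28.9 and 36.8 CPM with VWF, and 276, 245, 275 and 179.9 CPM with LPS. The VWF cultures sat nearer to the controls than to LPS, with a log2 fold change of 1.63 ± 0.18 (adjusted p = 8.31e-05), the smallest VWF value of the 7 genes at this time. For LPS the value was 4.28 ± 0.20 (adjusted p = 1.91e-07). Igtp gave 13.1, 15.7, 16.8, 13.7 and 14.8 CPM in controls, 60.1, 61.5, 55.9, 51.0 and 42.0 CPM with VWF, and 449.7, 545, 434 and 507 CPM with LPS. Its VWF cultures were again close to control and far from LPS, at log2 fold changes of 1.76 ± 0.12 and 4.99 ± 0.13 (adjusted p = 2.70e-06 and 9.61e-09).

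Among the effectors, Iigp1 was at 0.229, 0.629, 1.05, 0.634 and 0.247 CPM in controls, at 7.95, 11.4, 10.5, 7.61 and 3.60 CPM with VWF, and at 439, 438, 483 and 400.2 CPM with LPS. It was thus low but above control in each VWF culture, while every LPS culture exceeded the highest VWF culture by a wide margin. The log2 fold change of VWF against LPS was -5.77 ± 0.31 (adjusted p = 2.73e-07), and LPS was 9.59 ± 0.47 above control (adjusted p = 2.35e-07). Iigp1 stayed under 10 TPM in these VWF and control cultures, and without that filter VWF was 3.84 ± 0.44 above control (adjusted p = 6.60e-05).

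Ifi47 measured 19.5, 21.5, 24.4, 21.2 and 19.1 CPM in controls, 117, 137, 118, 124 and 85.7 CPM with VWF, and 607, 721, 585 and 793 CPM with LPS. Groups were well separated, with log2 fold changes of 2.35 ± 0.13 for VWF and 4.97 ± 0.14 for LPS (adjusted p = 1.16e-06 and 1.47e-08).

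Tgtp2 held 1.5, 2.42, 2.34, 1.92 and 0.635 CPM in controls, 18.8, 20.7, 21.8, 9.84 and 9.68 CPM with VWF, and 576, 521, 627 and 231 CPM with LPS. The fourth LPS culture was much lower than the others. Log2 fold changes against control were 3.08 ± 0.39 and 8.08 ± 0.48 (adjusted p = 0.000159 and 7.73e-07), the first being the largest VWF value among the 5 genes that passed the filter. Tgtp1 held 3, 1, 1, 1 and 0 reads in controls, 0.172, 0.231, 0.200, 0.176 and 0.281 CPM with VWF (10 to 19 reads), and 91.1, 77.8, 83.2 and 21.5 CPM with LPS. The LPS log2 fold change of 11.76 ± 0.63 (adjusted p = 4.12e-07) rested on 6 control reads in all, and without the filter the VWF value was 3.47 ± 0.73 (adjusted p = 0.00530).

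Counted over the family at 16 h, 5 of 5 genes past the filter were called higher with VWF than with PBS (4.55% of genes tested), and 7 of 7 without the filter (2.45%). With LPS, 7 of 7 were called higher (15.3%, and 8.71% without the filter) and did not overlap with control (25.7%). VWF was lower than LPS for 7 of 7 (14.5%, and 9.03% without the filter), with no overlap (24.9%). The median log2 fold change was 2.13 with VWF over the 5 genes against -0.0304 over all genes, and 4.99 with LPS over the 7 genes against -0.0292 over all genes. Of the genes past the filter, 1 with VWF (Tgtp2) and 3 with LPS (Iigp1, Tgtp1 and Tgtp2) reached 10 TPM only in treated cultures.

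The change between 3.5 h and 16 h was then tested within each treatment. With VWF every IRG gene fell, with LPS Tgtp1 rose, Tgtp2 rose by little more than 2-fold and the other 5 stayed within a 2-fold change, and no change in the controls was called. With VWF the ratio of mean CPM at 16 h to that at 3.5 h was 0.436 for Irgm1, 0.413 for Ifi47, 0.327 for Igtp, 0.261 for Irgm2, 0.256 for Tgtp2, 0.208 for Iigp1 and 0.173 for Tgtp1.

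In VWF-treated BMDMs the log2 fold change from 3.5 h to 16 h was -1.14 ± 0.16 for Irgm1, -1.89 ± 0.15 for Irgm2 and -1.56 ± 0.17 for Igtp. For the effectors it was -2.21 ± 0.32 for Iigp1, -1.21 ± 0.22 for Ifi47 and -1.91 ± 0.25 for Tgtp2, and -2.52 ± 0.32 for Tgtp1 without the filter. All 6 genes past the filter were called lower (12.2% of genes tested, largest adjusted p = 0.000472), 7 of 7 without the filter (8.65%), and the 16 h cultures lay below the 3.5 h cultures without overlap for 7 of 7 (28.8%).

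In LPS-treated BMDMs the members divided. The log2 fold change from 3.5 h to 16 h was -0.88 ± 0.10 for Irgm1 (adjusted p = 5.46e-05), with Irgm2 at -0.63 ± 0.15 (adjusted p = 0.00612), Igtp at -0.37 ± 0.10 (adjusted p = 0.0117) and Ifi47 at -0.74 ± 0.15 (adjusted p = 0.00203). All 4 passed the adjusted p (29.1% of genes tested, downwards) but not the 2-fold change, and their 16 h cultures lay below the 3.5 h cultures without overlap (28.6%). Iigp1 was at 0.10 ± 0.12 (adjusted p = 0.511). Tgtp1 rose by 2.48 ± 0.44 (adjusted p = 0.00108) and Tgtp2 by 1.09 ± 0.31 (adjusted p = 0.0131), so edgeR called 2 of 7 genes higher (14.6%) and 0 of 7 lower (13.5%), with 4 of 7 lower at an unadjusted p under 0.05 and 0 lower by DESeq2. The 16 h cultures lay above the 3.5 h cultures without overlap for Tgtp1 (25.8%), but not for Tgtp2. The Tgtp2 call was lost without replicate 1 of LPS at 3.5 h (0.93) or replicate 1 or 3 at 16 h (0.98 each), all under the 2-fold limit.

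In the controls Irgm1 was at -0.17 ± 0.13 (adjusted p = 0.323), Irgm2 at 0.79 ± 0.20 (adjusted p = 0.00908), Igtp at 0.97 ± 0.10 (adjusted p = 4.99e-05) and Ifi47 at 0.60 ± 0.12 (adjusted p = 0.00337). By edgeR 0 of these 4 genes, and 0 of 7 without the filter, were called (9.11% of genes tested in either direction), and 0 by DESeq2, whereas 3 of the 4 had an adjusted and an unadjusted p under 0.05 (21.2% upwards), and every 16 h control exceeded every 3.5 h control for Igtp and Ifi47 (14.9%).

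**Figure D3:**
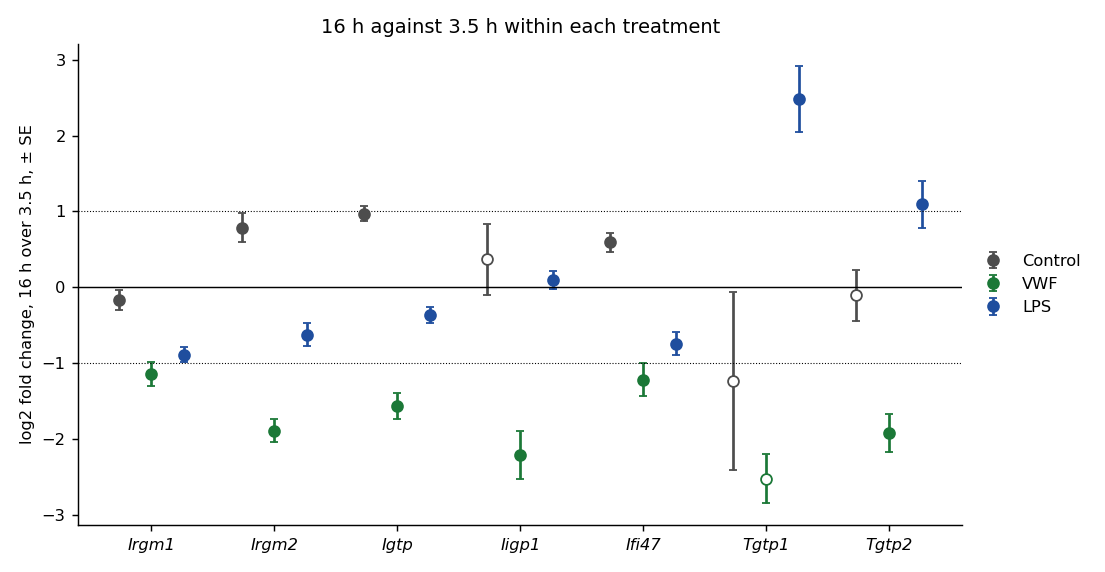
Log2 fold change from 3.5 h to 16 h for each IRG gene within control, VWF and LPS cultures, with SE. Open symbols are from the fit without the 10 TPM filter and dotted lines mark a 2-fold change. All VWF points lie below -1, the LPS points of Tgtp1 and Tgtp2 lie above 1, and the control points lie between the dotted lines except Tgtp1 at -1.24, which rests on 20 reads.

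Whether the effect of a treatment against control itself changed with time was tested as an interaction. The VWF effect was smaller at 16 h for Irgm2 (-2.69 ± 0.25 on the log2 scale), Igtp (-2.54 ± 0.19), Iigp1 (-2.63 ± 0.56), Ifi47 (-1.82 ± 0.26) and Tgtp2 (-1.87 ± 0.44), so 5 of the 6 genes past the filter were called lower (8.05% of genes tested). For Irgm1 the value was -0.99 ± 0.21 (adjusted p = 0.00101), just under the fold change required. For Tgtp1, without the filter, it was -1.26 ± 0.93 (adjusted p = 0.543), with an SE too wide to read a direction from.

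The LPS effect was smaller at 16 h for Irgm2 (-1.40 ± 0.26), Igtp (-1.32 ± 0.13) and Ifi47 (-1.32 ± 0.19), giving 3 of 7 genes called lower (12.8%). Each of these values combines a change within LPS (-0.63, -0.37 and -0.74, none called) with a rise in the controls (0.79, 0.97 and 0.60). The LPS effect was larger at 16 h for Tgtp1 (3.74 ± 1.09, adjusted p = 0.00945), giving 1 of 7 called higher (13.5%). Without the fourth 3.5 h control, which held 8 of the 14 Tgtp1 reads of its group, the Tgtp1 value was 3.00 with an adjusted p of 0.0857. Irgm1 (-0.71 ± 0.17, adjusted p = 0.00259), Iigp1 (-0.30 ± 0.46, adjusted p = 0.615) and Tgtp2 (1.16 ± 0.49, adjusted p = 0.0589) were not called, and with the replicate number as a block Tgtp2 was called at 1.25 (adjusted p = 0.0453).

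The gap between VWF and LPS widened with time for 5 of 7 genes (14.3% of genes tested were called in that direction). As VWF over LPS, the change in log2 fold change was -1.28 ± 0.22 for Irgm2 and -1.21 ± 0.22 for Igtp among the regulators. Among the effectors the values were -2.32 ± 0.38 for Iigp1, -3.03 ± 0.41 for Tgtp2 and -4.96 ± 0.53 for Tgtp1. Irgm1 (-0.28 ± 0.20, adjusted p = 0.258) and Ifi47 (-0.49 ± 0.29, adjusted p = 0.163) did not pass the test.

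The order of the 6 groups by mean CPM took 1 of 2 forms. Irgm1, Irgm2, Igtp and Ifi47 ran from LPS at 3.5 h through LPS at 16 h, VWF at 3.5 h and VWF at 16 h down to the controls. Iigp1, Tgtp1 and Tgtp2 ran the same way except that LPS at 16 h came first. Neighbouring ranges overlapped between the controls of the 2 times for Irgm1, Irgm2, Iigp1, Tgtp1 and Tgtp2, between the LPS times for Iigp1 (432 ± 71.9 CPM at 3.5 h and 440.1 ± 34.0 CPM at 16 h, SD, n = 4 each) and Tgtp2 (240.3 ± 61.7 and 489 ± 177 CPM), and between LPS at 16 h and VWF at 3.5 h for Irgm2 (244 ± 45.2 and 157 ± 25.7 CPM, SD, n = 4 and 5). No other neighbours in these orders overlapped.

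The fourth LPS culture at 16 h stood apart for some members. Its CPM relative to the mean of the other 3 was 0.256 for Tgtp1, 0.403 for Tgtp2 and 0.678 for Irgm2, but 0.883 for Iigp1, 0.912 for Irgm1, 1.06 for Igtp and 1.24 for Ifi47. Among interferon-regulated genes it was 0.630 for Gbp2, 0.572 for Gbp5 and 1.02 for Irf1. Without this culture the change of LPS from 3.5 h to 16 h was 2.78 for Tgtp1 and 1.32 for Tgtp2, and the LPS interaction of Tgtp2 passed at 1.38 (adjusted p = 0.0148).

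**Figure D4:**
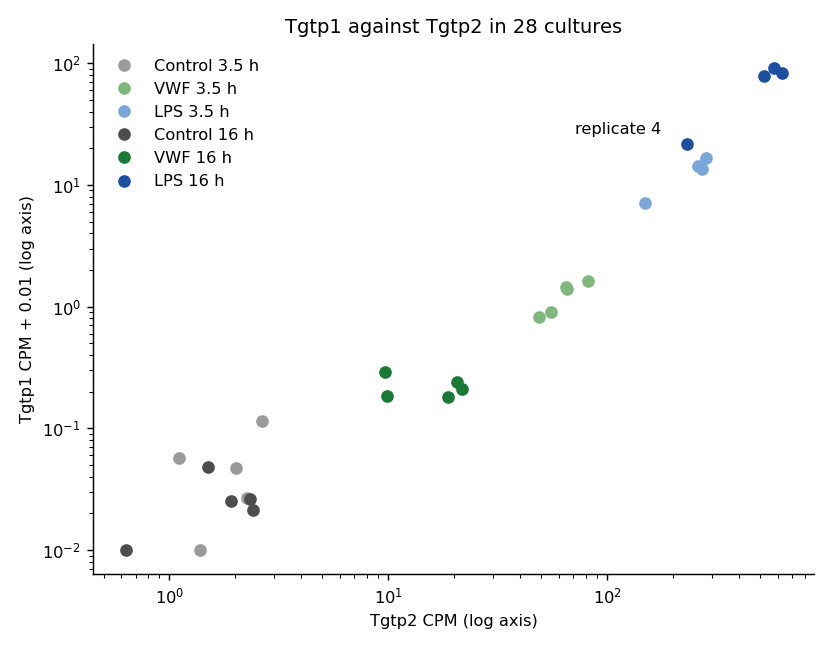
CPM of Tgtp1 (plus 0.01) against CPM of Tgtp2 in the 28 cultures, both on log axes. The fourth LPS culture at 16 h, labelled replicate 4, lies next to the 3.5 h LPS cultures rather than with the other 3 of its group.

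The Tgtp1 share of all reads given to the pair was small and differed between groups. It was 1.88% ± 0.26 with VWF at 3.5 h and 1.5% ± 0.82 at 16 h (SD, n = 5 each), against 5.03% ± 0.44 with LPS at 3.5 h and 11.7% ± 2.3 at 16 h (SD, n = 4 each), where it ran from 8.51% to 13.7%. Controls, with 36 to 216 reads of the pair per culture, averaged 2.08% ± 1.81 and 0.888% ± 0.941. Counted as a single gene, the pair rose with LPS from 3.5 h to 16 h by 1.21 ± 0.32 (adjusted p = 0.00964).

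Levels of different genes were compared per exon length, as TPM. The 7 genes summed to 62.9 ± 9.1 TPM in the 3.5 h controls and 79.4 ± 18.0 TPM in the 16 h controls. With VWF the sum was 862 ± 162 TPM at 3.5 h and 324 ± 57 TPM at 16 h, and with LPS 2655 ± 275 and 2055 ± 319 TPM (SD, n = 5, or 4 with LPS). TPM here carries no TMM scaling.

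The share of the regulators was lower in treated cultures than in the controls of the same time. Irgm1, Irgm2 and Igtp together made up 65.3% ± 3.0 of the summed TPM in 3.5 h controls, 56.9% ± 3.0 with VWF and 52.1% ± 2.7 with LPS, and 63.6% ± 1.4, 54.4% ± 2.5 and 45.1% ± 1.7 in the same order at 16 h. Ifi47 gave the largest single share in every treated group, from 28.1% with LPS at 16 h to 39.9% with VWF at 16 h. It also led the untreated 16 h controls at 33.7%, while Irgm1 led the 3.5 h controls at 34.1%. Tgtp2 made up 6.71% with VWF and 6.08% with LPS at 3.5 h, but 16.8% ± 5.7 with LPS at 16 h against 4.55% ± 1.18 with VWF. Iigp1 rose from 0.382% of the sum in 3.5 h controls to 2.10% with VWF and 5.56% with LPS, and at 16 h stood at 1.16% and 7.74%. These shares are descriptions, and they depend on the exon lengths used.

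**Figure D5:**
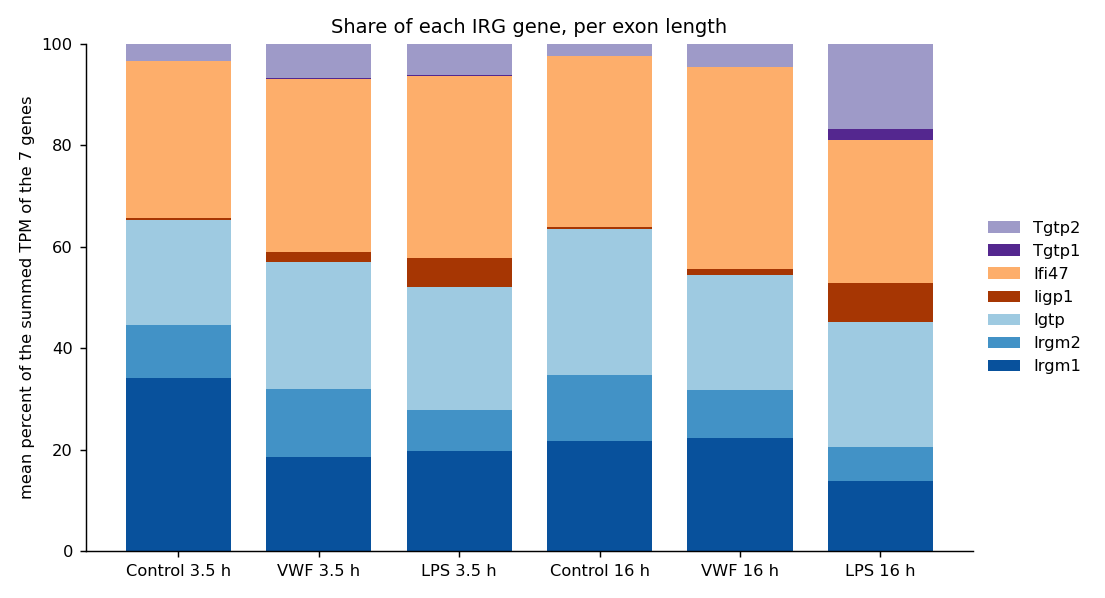
Mean share of each IRG gene in the summed TPM of the 7 genes, by group, with regulators in blue at the bottom and effectors above. The blue part shrinks from 65.3% in 3.5 h controls to 45.1% with LPS at 16 h, where Tgtp2 reaches 16.8%.

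Across the 28 cultures the log2 CPM of any pair of members correlated with Pearson r between 0.907 (Irgm2 and Tgtp1) and 0.994 (Igtp and Ifi47), a description in which all points share the 6 groups. After group means were removed, r ran from 0.038 (Igtp and Tgtp1) to 0.812 (Igtp and Ifi47), and for the paralogs Tgtp1 and Tgtp2 it was 0.568. Among 8860 genes ranked, those most like the mean of the 7 were Ifit2 (r = 0.997), Cmpk2 (0.995), Gm20559 (0.994), Tnfsf10 (0.994) and Oasl1 (0.993). Only 3 of these 5 were also among the 5 most alike by Spearman correlation, and 2 of 5 by the 6 group means. For single members the closest gene was Nampt for Irgm1, Igtp and Ifi47 (0.995, 0.990 and 0.993), Parp9 for Irgm2 (0.995), Ifit2 for Iigp1 (0.993), Casp1 for Tgtp1 (0.982) and Gbp2 for Tgtp2 (0.991).

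Of 9 further IRG genes in the annotation, 4 could be tested for VWF against control at 3.5 h and 3 rose (9.18% of all genes tested), of which Gm4951 and Gm5431 reached 10 TPM only in treated cultures. These were Gm12250 (Irgb10, an effector that also acts on bacteria in the cytosol) at 5.57 ± 0.23, Gm4951 at 5.18 ± 0.35 and Gm5431 at 3.55 ± 0.21. With LPS they rose by 7.45 ± 0.22, 6.88 ± 0.35 and 5.04 ± 0.18 (12.8% of all genes tested). Irgq, a divergent member not known to be interferon-induced, was not called with either, at 0.71 ± 0.14 and 0.22 ± 0.15. At 16 h the same 3 rose with VWF (2.69 ± 0.32, 3.11 ± 0.44 and 2.14 ± 0.21, against 4.55% of all genes tested). With LPS at 16 h they and Gm12185 (4.89 ± 0.24) rose (15.3%). Gm4951, Gm5431 and Gm12185 passed the filter at 16 h only through treated cultures. From 3.5 h to 16 h with LPS, Gm12250 was lower (-1.42 ± 0.17, against 13.5% of all genes tested) and Gm5431 was at 0.04 ± 0.17. Gm4951 rose by 1.38 ± 0.40 (14.6% called higher), but its ranges overlapped. The fourth LPS culture at 16 h held 39.9 CPM of Gm4951, against 117 to 168 CPM in the others and 29.0 to 56.4 CPM with LPS at 3.5 h. 9930111J21Rik1, 9930111J21Rik2, F830016B08Rik and Irgc1 did not reach 10 TPM in any culture and were not tested.

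The guanylate-binding proteins (GBPs) are related interferon-induced GTPases that cooperate with IRG effectors on vacuoles. Of 11 listed, 6 were tested and 6 rose with VWF at 3.5 h (9.18% of all genes tested), but 5 of these 6 reached 10 TPM only in VWF cultures, so their count is no support. They were led by Gbp5 (9.48 ± 0.25) and Gbp2 (5.43 ± 0.17), and with LPS, where 6 of 7 tested passed the filter only through treated cultures, 7 of 7 rose (12.8%), led by Gbp5 (10.79 ± 0.25) and Gbp4 (9.57 ± 0.41). At 16 h, 3 of 3 tested rose with VWF (4.55%) and 7 of 7 with LPS (15.3%), all of which passed the filter only through treated cultures.

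Of 5 interferon and receptor genes tested at 3.5 h, 3 rose with VWF (9.18% of all genes tested) and 2 with LPS (12.8%). Among these 5, 1 passed the filter only through treated cultures. At 16 h 0 of 4 tested rose with VWF (4.55%). With LPS 3 of 4 rose (15.3%) and 1 fell, where 2210 of 7994 genes tested were called in either direction. Between VWF and LPS at 3.5 h, 1 of the 5 was called, lower with VWF (6.71%). This was Ifnb1, encoding interferon-β, which was at 2.51 to 5.88 CPM (median 4.59) with VWF and at 111 to 223 CPM (median 179) with LPS at 3.5 h, while no control exceeded 0.132 CPM. By 16 h it was at most 0.172 CPM with VWF and 1.41 to 4.18 CPM with LPS. Its log2 fold change at 3.5 h was 6.64 ± 0.61 with VWF and 12.08 ± 0.46 with LPS against controls with 11 reads in all (adjusted p = 3.86e-06 and 2.17e-09). Between VWF and LPS it was -5.42 ± 0.30 (adjusted p = 4.72e-07). Ifng, encoding interferon-γ, did not pass 0.591 CPM in any culture and was not tested.

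Of 12 listed kinases and factors of interferon signalling, 7 rose with VWF at 3.5 h (9.18% of all genes tested). Stat2, a factor of the type I interferon route, rose by 3.24 ± 0.18, Irf9 by 1.77 ± 0.07 and Irf1, a factor that amplifies IRG transcription, by 3.01 ± 0.23. With LPS 9 of 12 rose (12.8%), including Irf1 (5.06 ± 0.25) and Stat2 (3.61 ± 0.19). At 16 h with VWF 3 of 12 rose (4.55%), among them Irf7 (4.57 ± 0.31) and Stat2 (1.93 ± 0.36), while Irf1 was at 0.56 ± 0.11 and Irf9 at 0.93 ± 0.11 and neither was called. With LPS at 16 h 9 of 12 rose (15.3%). From 3.5 h to 16 h with VWF, Irf1 fell (-2.90 ± 0.12), and Stat2 was at -0.73 ± 0.21 and was not called.

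Of 5 listed inhibitors, 3 rose with VWF at 3.5 h (9.18% of all genes tested), among them Socs1 (6.04 ± 0.27) and Socs3 (7.33 ± 0.40), which block JAK kinases, and 4 rose with LPS (12.8%). In each comparison 2 of the 5 passed the filter only through treated cultures. At 16 h 2 of 4 tested rose with VWF (4.55%) and 4 of 5 with LPS (15.3%), with 2 and 3 that passed only through treated cultures. Socs1 fell with VWF from 3.5 h to 16 h at -4.42 ± 0.26.

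Autophagy conjugation proteins and adaptors are known to steer IRG and GBP loading. Of 15 tested with VWF at 3.5 h, 1 rose (the adaptor Sqstm1, 1.69 ± 0.08, against 9.18% of all genes tested). Another 1 fell (Tfeb, a factor for lysosome genes, -1.78 ± 0.11), where 453 of 8200 genes tested were called lower. LPS gave the same 2 genes at 1.33 ± 0.10 (12.8% called higher) and -3.39 ± 0.11. With LPS 2010 of 8190 genes tested were called in either direction. At 16 h the 15 values with VWF lay between -0.95 and 0.46 and none was called, and with LPS 1 of 15 rose (15.3% of all genes, Sqstm1, 1.70 ± 0.15). Of the ubiquitin ligases and further interferon targets that act beside IRG proteins, 7 of 10 tested rose with VWF (9.18% of all genes) and 7 of 10 with LPS (12.8%) at 3.5 h, led in both by Nos2, the inducible nitric oxide synthase (10.60 ± 0.42 and 12.07 ± 0.38), and 1 of the 10 passed the filter only through treated cultures. At 16 h 2 of 8 rose with VWF (4.55%) and 7 of 10 with LPS (15.3%), 2 of the latter 10 having passed only through treated cultures.

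Markers of other cell types were set beside these results. The natural killer cell list summed to 9.18 to 13.6 CPM with LPS at 3.5 h and 16.7 to 18.6 CPM at 16 h and to at most 1.85 CPM elsewhere. Nearly all of it was Klrk1 (8.90 to 13.3 and 16.6 to 18.5 CPM), while Ncr1 stayed at or below 0.169 CPM and Prf1 was at 0 in the LPS cultures. The dendritic cell list summed to 14.0 to 20.9 CPM with VWF and 21.9 to 27.2 CPM with LPS at 3.5 h, to 19.7 to 39.0 CPM with LPS and 1.18 to 4.23 CPM with VWF at 16 h, and to at most 1.90 CPM in controls. Xcr1 made up most of it (10.4 to 17.0 CPM with VWF at 3.5 h), with Ccr7 at 6.42 to 11.1 CPM with LPS at 16 h, and Flt3 stayed at or below 0.204 CPM. The neutrophil list summed to 2.46 to 5.39 CPM with VWF against 0.280 to 2.36 CPM in controls at 16 h. The 1 marker that could be tested there, Camp, was higher (3.65 ± 0.86), but it passed the filter only through VWF cultures. The B cell list summed to 1.17 to 3.53 CPM with LPS against 6.11 to 13.0 CPM in controls at 16 h, where the 1 tested marker, Cd79b, was lower (-2.23 ± 0.43). The natural killer sums of VWF and control cultures overlapped at both times, and the dendritic sums of VWF and control cultures overlapped at 16 h. The part of these lists in the IRG results was not tested.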

How the data were processed

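RNA was sequenced from 28 BMDM cultures. The authors aligned paired-end reads with STAR to GRCm38 (mm10) and deposited whole-number read counts per Ensembl gene. For the gene annotation, strand setting and treatment of multi-mapping reads, the sources used here say nothing. Gene names, positions and exon lengths came from GENCODE M21, and promoters from RefSeq (GRCm38.p6).

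Each comparison was fitted to all genes reaching 10 TPM in at least 1 culture compared, with TMM factors and the quasi-likelihood test of edgeR 4.0.16 (R 4.3.3), and p-values were adjusted by Benjamini-Hochberg over all genes tested. A gene was called at an adjusted p under 0.05 and a fold change above 2. The study's methods used DESeq2 with these limits, and DESeq2 1.42.0 was an alternative. Interactions were contrasts in a fit of the 4 groups involved. The code was tested on simulated data. TPM was computed from counts and exon length, and likeness from log2 CPM with a prior count of 2. Totals of 41131209 to 77699206 reads per culture left Tgtp1 with 0 to 8 reads in each control.

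The members and gene lists were chosen with earlier results of these data known. All IRG genes are named. Of the other lists Ifnb1, Ifng, Stat2, Irf1, Irf9 and Socs1 are named, with at most 2 called genes of largest rise and 2 of largest fall, and 1 further gene that the rule names is not reported here. The values of Gbp2 and Gbp5 in single LPS cultures were chosen after they were seen. Only for VWF against LPS at 16 h did all same-numbered cultures correlate positively in their deviations from group means, between 0.159 and 0.781 over 4 pairs. The lowest chi-square per degree of freedom between replicates was 15.8, so none was a duplicate. Alternatives were library size and median-of-ratios scaling, 2 other filters, a fit of all 6 groups, a replicate block, Tgtp1 and Tgtp2 summed, no fold threshold, and each culture left out.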

Additional observations from a re-analysis of the deposited data

Results flagged for a closer look

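Tgtp2 in the first LPS culture at 3.5 h, at 149 CPM, had a gap to the other 3 that took up most of the whole range of its group, past the limit of Dixon's test. This was the only value past that limit among 42 sets of cultures (7 genes in 6 groups), where chance gives about 1 in 20. The fourth LPS culture at 16 h was lower still relative to its group for Tgtp1 and Tgtp2 (0.256 and 0.403 of the mean of the other 3), but its gap relative to the range did not pass the limit.

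Several treatment effects differed between 3.5 h and 16 h by the interaction test (log2, 16 h minus 3.5 h). For VWF against control these were Irgm2 (-2.69), Igtp (-2.54), Iigp1 (-2.63), Ifi47 (-1.82) and Tgtp2 (-1.87). For LPS against control they were Irgm2 (-1.40), Igtp (-1.32), Ifi47 (-1.32) and, in the other direction, Tgtp1 (3.74). For VWF against LPS they were Irgm2 (-1.28), Igtp (-1.21), Iigp1 (-2.32), Tgtp1 (-4.96) and Tgtp2 (-3.03). The 3 contrasts share cultures.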

How the results depend on the processing

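No called value of the 7 genes changed direction under any alternative, and under library size scaling, edgeR's own filter and no filter 74 of 74 kept their call. With a culture left out, uncalled values of Iigp1 changed sign. They ran from -0.00087 to 0.160 for LPS from 3.5 h to 16 h. For the change of the LPS effect with time they ran from -0.511 to 0.0230. For LPS from 3.5 h to 16 h, 2 members were called, Tgtp1 and Tgtp2. Summed, they are 1 gene and it kept the call (1.21), so the count of 1 is not a lost call. The count was 6 with no fold threshold (2 higher and 4 lower). It was 1 to 2 with a culture left out, since Tgtp2 lost its call as given above. For control from 3.5 h to 16 h, where 0 were called, the count was 3 with no fold threshold and 0 to 1 with a culture left out (Igtp at 1.01 or 1.00 without replicate 1 or 4 of the 16 h controls). For the change of the VWF effect with time, where 5 were called, leaving out a culture gave 5 to 6, and Irgm1 passed the fold limit under DESeq2 (adjusted p = 3.77e-05) and median-of-ratios scaling (adjusted p = 0.000970). For the change of the LPS effect with time, where 4 were called, leaving out a culture gave 3 to 5. Tgtp2 passed there under DESeq2 (1.16, adjusted p = 0.0370), in the fit of all 6 groups (1.12, adjusted p = 0.0472), with the pair summed (1.29, adjusted p = 0.0394) and without replicate 3 of the 3.5 h controls (1.31), replicate 2 of the 16 h controls (1.30) or replicate 4 of LPS at 16 h (1.38). Tgtp1 lost its call without replicate 4 of the 3.5 h controls (3.00, adjusted p = 0.0857). The cause was not tested.

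The replicate block changed 1 call of 74, that of Tgtp2 in the same interaction (1.25, adjusted p = 0.0453). In VWF against LPS at 16 h, the only comparison where all same-numbered cultures correlated positively, the block changed no member call and moved the calls over all genes from 1932 to 1943. In the other comparisons the correlations of same-numbered cultures ran from -0.668 to 0.683, so whether the replicate number marks a shared origin is unknown.

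Over all genes, the calls rose by over 1.5 times when the 10 TPM filter was replaced by edgeR's own or dropped: from 1206 to 2099 and 2366 for VWF and from 2010 to 3917 and 4542 for LPS against control at 3.5 h, from 679 to 1362 and 1378 and from 2210 to 4087 and 4224 at 16 h, and from 856 to 1776 and 1942 and from 1932 to 3897 and 4242 for VWF against LPS. With time they rose from 1696 to 3458 and 3974 (VWF), 1964 to 4116 and 4298 (LPS) and 759 to 1565 and 1524 (control), and for the interactions from 1171 to 1972 and 1904, 2301 to 3790 and 3613, and 2052 to 3576 and 3528. With longest transcripts in place of exon unions the share of the regulators in the summed TPM ran from 63.8% to 41.6%. Depth limited Tgtp1, with 14 and 6 reads over the controls of each time, so its fold changes depend on the prior count.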
